A study of Mus musculus with 4 samples.

Results

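The genes described here are the precursors of neuropeptide Y (Npy), agouti-related peptide (Agrp) and pro-opiomelanocortin (Pomc), with 7 receptor genes of the same appetite circuits, Npy1r, Npy2r, Npy5r, Mc3r, Mc4r, Lepr and Ghsr. They were chosen by gene name, and all 10 were found among the 25044 entries of the expression tables. RNA was sequenced from brain tissue of the parasubthalamic nucleus (PSTh), a small cell group at the edge of the posterior lateral hypothalamus, taken from naive mice of the inbred strain C57BL/6. The 4 libraries, called replicates 1 to 4, form 1 group. No stressed mice were sequenced, and age, sex and any pooling of animals are not given, so genes are compared with each other within libraries and libraries are described side by side. The unit of the values was taken to be FPKM, which divides the fragments of a gene by its transcript length and by library depth.

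NPY and AgRP are made together in neurons of the arcuate nucleus that drive feeding, while neighbouring POMC neurons restrain it. POMC is cut into melanocortin peptides that activate the receptors MC3R and MC4R, and AgRP blocks the same receptors. Leptin, from fat, and ghrelin, from the stomach, act on these neurons through the receptors encoded by Lepr and Ghsr. In the adult mouse brain Agrp is transcribed mainly in the arcuate nucleus, and Pomc there, in the caudal brainstem and, outside the brain, in the pituitary, whereas Npy is also made in many other brain regions. The parasubthalamic nucleus is itself known for suppressing feeding.

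Replicates differed in marker genes of neighbouring tissues. Replicate 1 contained Hox transcripts of the spinal cord and caudal hindbrain, replicate 2 was high in genes of the medial hypothalamus and of midbrain dopamine neurons, and replicate 3 was high in thalamic genes. Replicate 4 was high in the choroid plexus gene Ttr. Library totals lay between 428612 and 442836 FPKM, and 12375 to 12626 genes with an Ensembl identifier reached 1 FPKM. Markers of the parasubthalamic nucleus were present in every library, with Tac1, the substance P precursor, at 46.9 to 91.8 FPKM and Adcyap1, the PACAP precursor, at 26.2 to 58.1 FPKM. Crh, the least abundant of the 7 listed markers, lay at 1.50 to 2.29 FPKM.

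Npy was the most abundant of the 10 genes in every library, and Agrp and Pomc varied most between libraries. Npy lay at 20.7, 41.0, 16.4 and 18.3 FPKM in replicates 1 to 4, a mean of 24.1 ± 11.4 (SD, n = 4). Replicate 2 stood above the others, which lay within 16.4 and 20.7 FPKM. Pomc lay at 8.65, 30.1, 2.83 and 5.70 FPKM in the same order, 11.8 ± 12.4. Agrp, the least abundant precursor, lay at 2.20, 8.63, 0.666 and 1.45 FPKM, 3.24 ± 3.65. Both were highest in replicate 2 and lowest in replicate 3, with a 10.6-fold span for Pomc and a 13.0-fold span for Agrp, against a 2.5-fold span for Npy. Without replicate 2 the means were 1.44 ± 0.769 for Agrp, 5.73 ± 2.91 for Pomc and 18.5 ± 2.15 for Npy (SD, n = 3). By mean level Npy stood at percentile 83.1 of the 17630 entries with a mean of 0.1 FPKM or more, Pomc at 68.9 and Agrp at 42.2.

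**Figure D1:**
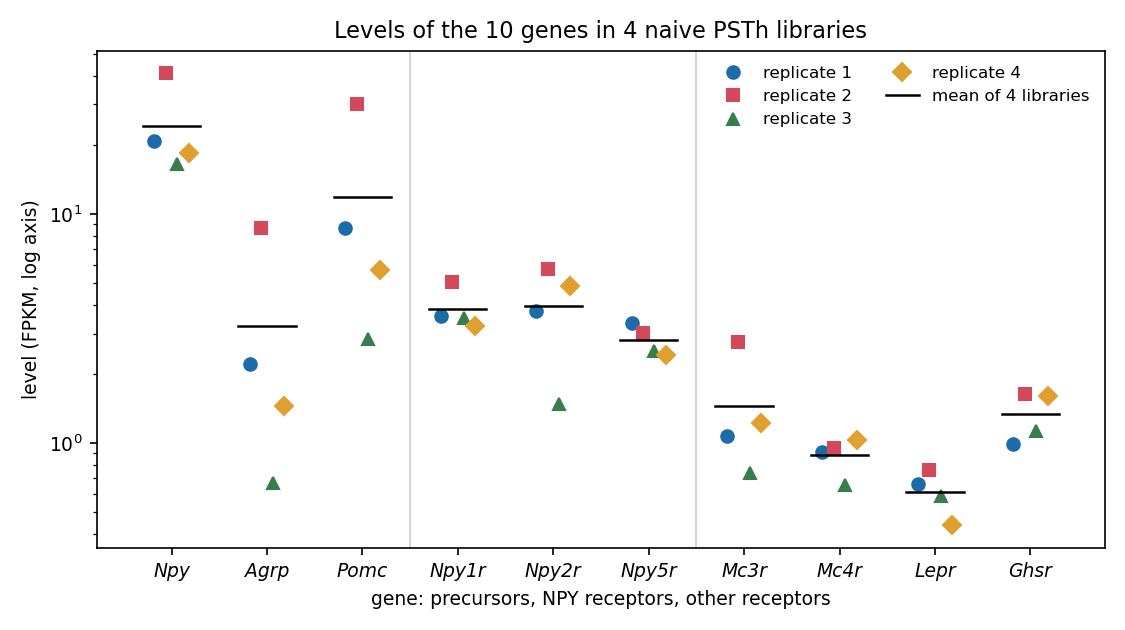
Level of each gene in FPKM on a log axis, with 1 point for each of the 4 libraries and a bar at their mean; precursors, NPY receptors and the other receptors are set apart by grey lines. Replicate 2 is highest for Npy, Agrp and Pomc, whose means are 24.1, 3.24 and 11.8 FPKM, and receptor means lie between 0.612 and 3.96 FPKM.

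Agrp and Pomc kept nearly the same proportion in all 4 libraries. The level of Agrp divided by that of Pomc was 0.255, 0.287, 0.235 and 0.254 in replicates 1 to 4, a 1.22-fold span while each gene spanned more than 10-fold. On the scale of log2(FPKM + 0.1), which understates differences of low genes, Agrp minus Pomc was -1.89 ± 0.07 (SD, n = 4), and Agrp was below Pomc in 4 of 4 libraries. An exact two-sided sign-flip permutation test gave p = 0.13, the smallest that 4 libraries allow, so no call is possible from it. Adjusted over the 3 pairs of genes tested in this way it was also 0.13. Npy did not keep step: Agrp divided by Npy was 0.106, 0.211, 0.0406 and 0.0790, a 5.19-fold span, and Pomc divided by Npy spanned 4.26-fold. In bulk tissue fewer cells of a type and less RNA per cell cannot be told apart.

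Npy and Pomc lie on chromosomes 6 and 12 of GRCm38 (Npy, ENSMUSG00000029819, 49822710 to 49829507, plus strand; Pomc, ENSMUSG00000020660, 3954951 to 3960642, plus strand). Agrp (ENSMUSG00000005705) lies on chromosome 8, 105566698 to 105637393, minus strand. One of its 3 annotated transcripts reaches far upstream, where its exons overlap those of Ctcf on the other strand, and the use of strand in counting is not given. Ctcf itself lay between 14.0 and 15.8 FPKM in the 4 libraries. The 250 bases upstream of the RefSeq starts of Npy and Pomc on GRCm38.p6 are shown because both precursors were highest in replicate 2 but with different spans. Any link between these windows and the levels was not tested. Capitals mark matches to TATAAA, the TATA box, and CANNTG, the E-box, on either strand. The windows are chr6:49822460-49822709 and chr12:3954695-3954944, both on the plus strand.
Npy: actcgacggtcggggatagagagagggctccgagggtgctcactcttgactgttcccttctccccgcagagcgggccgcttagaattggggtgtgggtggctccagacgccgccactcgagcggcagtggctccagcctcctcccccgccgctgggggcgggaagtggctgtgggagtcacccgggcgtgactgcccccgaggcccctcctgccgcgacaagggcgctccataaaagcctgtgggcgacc
Pomc: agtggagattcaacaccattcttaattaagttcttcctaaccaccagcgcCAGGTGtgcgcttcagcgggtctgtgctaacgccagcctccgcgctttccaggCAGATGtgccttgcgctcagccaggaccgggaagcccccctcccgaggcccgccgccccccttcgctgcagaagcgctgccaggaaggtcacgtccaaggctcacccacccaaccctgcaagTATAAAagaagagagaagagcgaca
The Pomc window held TATAAA beginning 25 bases before the start, and CANNTG beginning at 200 and 147 bases, with no overlap between these matches. The Npy window held no exact match to either, and neither window held TTCNNNGAA, a core that STAT factors bind. Only exact matches were sought, so near ones, such as cataaa late in the Npy window, were not counted. Among 32851 promoter windows of the same length TATAAA was found in 12.4%, CANNTG in 66.2% and TTCNNNGAA in 7.02%. Such windows were examined for 8 of the 10 genes, and those of Agrp and Mc4r were not examined.

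The genes whose profile over the libraries was most like each precursor were sought among 12544 named genes averaging at least 1 FPKM. Likeness was the root mean square distance between log2 deviations from each gene's own mean, over 4 libraries. For Agrp the nearest gene was Pomc, at 0.06 log2 units, and for Pomc it was Agrp. The next nearest to both were Fezf1, a zinc finger transcription factor, at 0.39 from each, and Scgn, the calcium-binding protein secretagogin, at 0.50 from Agrp and 0.45 from Pomc. Fezf1 lay at 0.75, 3.58, 0.231 and 1.06 FPKM in replicates 1 to 4. Npy ranked 40 by likeness to Agrp, at 0.79, and 41 by likeness to Pomc, at 0.74. Counted from Npy, Agrp ranked 12270 and Pomc 12170, so neither was close to Npy. The distance is not scaled for how widely a gene moves. The genes nearest to Npy were Slc18a2, the vesicular monoamine transporter, at 0.05, Ddc, the decarboxylase of dopamine and serotonin synthesis, at 0.07, and Chrnb3, a nicotinic receptor subunit, at 0.08. Slc18a2 lay at 42.6, 78.9, 34.4 and 35.4 FPKM. Each of these genes was highest in replicate 2, and with 4 libraries many genes can share such a profile, so the distances are a description.

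**Figure D2:**
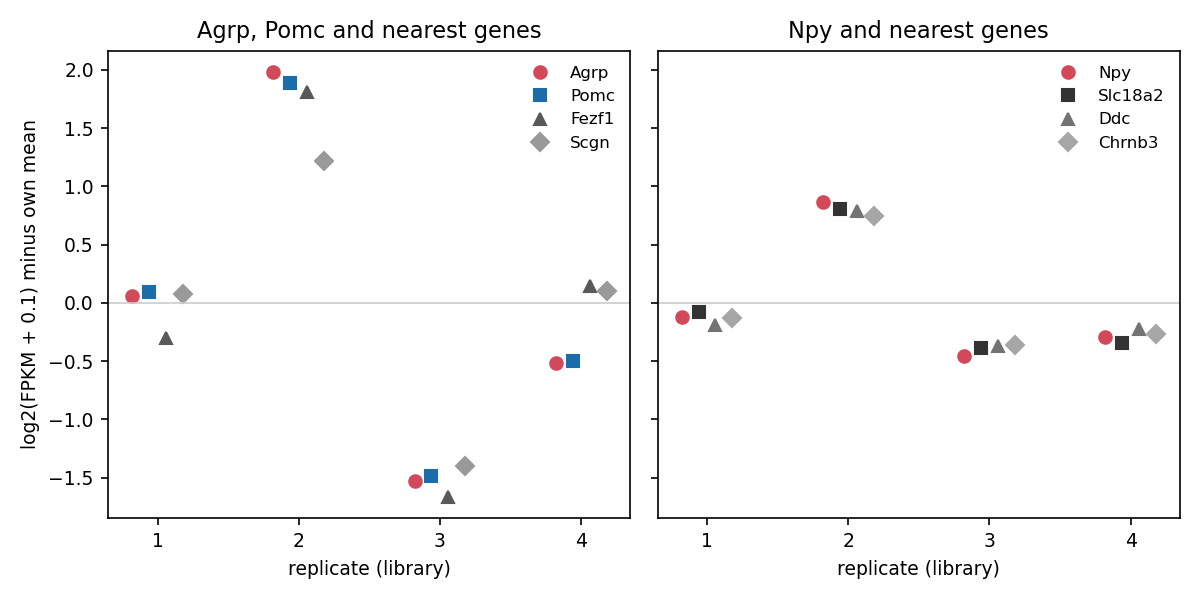
Each point is a gene's log2(FPKM + 0.1) in 1 library minus its own mean over the 4 libraries, for Agrp, Pomc and their nearest genes (left) and for Npy and its nearest genes (right). Agrp and Pomc stand near 1.98 and 1.88 in replicate 2 and near -1.53 and -1.48 in replicate 3, while Npy stands at 0.86 and -0.45 there.

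Agrp and Pomc were both lower than Npy per transcript length. In limma, fitted to the differences of every gene from Npy within libraries, Agrp was 10.2-fold lower, at -3.35 log2 units (SE 0.40, adjusted p = 0.000181), and lay below Npy in 4 of 4 libraries. Pomc was 2.76-fold lower at -1.46 (SE 0.39, adjusted p = 0.00999), also in 4 of 4. Of all genes tested, 70.4% were called lower than Npy and 10.2% higher, so a lower level per length than Npy was common. On values multiplied back by transcript length the balance turned, with 4330 of 15382 genes lower and 7834 higher. The Pomc call was lost without replicate 1 (-1.54, adjusted p = 0.0534 in limma), without replicate 4 (-1.40, adjusted p = 0.0575 in limma), and on values multiplied back by transcript length (-0.59, adjusted p = 0.190 in limma).

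The 3 NPY receptor genes were close to each other in mean level, and Npy2r was the one that moved most between libraries. These receptors couple to inhibitory G proteins, NPY1R and NPY5R mostly on receiving neurons and NPY2R largely on the endings of NPY neurons themselves. Npy1r lay at 3.60, 5.06, 3.50 and 3.25 FPKM in replicates 1 to 4, 3.85 ± 0.819 (SD, n = 4). Npy2r lay at 3.78, 5.76, 1.49 and 4.83 FPKM, 3.96 ± 1.84, and Npy5r at 3.34, 3.01, 2.51 and 2.42 FPKM, 2.82 ± 0.435. Replicate 2 was highest for Npy1r and Npy2r and replicate 1 for Npy5r. Replicate 3 was low for Npy2r alone among the 3, at less than any other library. Npy5r (chromosome 8, 66679965 to 66688128, minus strand) and Npy1r (chromosome 8, 66697192 to 66706792, plus strand) are neighbours transcribed away from each other with 9063 bases between them, and Npy2r is on chromosome 3. Npy5r divided by Npy1r was 0.930, 0.595, 0.718 and 0.743.

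Neither Npy2r nor Npy5r was called different from Npy1r in limma. Npy2r differed by -0.09 log2 units (SE 0.30, adjusted p = 0.773) and was above Npy1r in 3 of 4 libraries. Its difference was 0.27 without replicate 3, where Npy2r lay at 1.49 FPKM against 3.50 FPKM for Npy1r. Npy5r differed by -0.43 (SE 0.18, adjusted p = 0.0549) and was below Npy1r in 4 of 4 libraries. That value lies at the threshold, and Npy5r passed as lower under 6 alternatives, which are listed in the account of the processing. Missing the threshold does not show that these levels are equal. Npy itself was above Npy1r in 4 of 4 libraries, by 5.80-fold per transcript length. On values multiplied by length this call was lost (Npy1r minus Npy -0.16, adjusted p = 0.607 in limma).

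The melanocortin, leptin and ghrelin receptor genes had the lowest means of the 10. Agrp lay among them in single libraries, below Mc3r and Ghsr in replicate 3 and below Ghsr in replicate 4. MC3R and MC4R are the melanocortin receptors of the brain, MC3R present also on AgRP and POMC neurons and MC4R on many of their targets. Mc3r lay at 1.07, 2.75, 0.739 and 1.22 FPKM in replicates 1 to 4, 1.45 ± 0.895 (SD, n = 4). Mc4r lay at 0.914, 0.950, 0.659 and 1.03 FPKM, 0.889 ± 0.162. Replicate 2 was highest for Mc3r, and replicate 4 for Mc4r. Mc3r was therefore 2.90-fold Mc4r in replicate 2 and 1.17, 1.12 and 1.18-fold in replicates 1, 3 and 4. Mc3r minus Mc4r was 0.50 ± 0.63 log2 units (SD, n = 4; exact sign-flip permutation p = 0.13, the smallest possible), and 0.19 ± 0.04 without replicate 2. Mc3r was higher in 4 of 4 libraries.

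Ghsr, which encodes the ghrelin receptor, lay at 0.994, 1.64, 1.13 and 1.60 FPKM, 1.34 ± 0.327 (SD, n = 4). Lepr, the leptin receptor gene, was the lowest of all in every library, at 0.664, 0.759, 0.587 and 0.438 FPKM, 0.612 ± 0.136. Lepr has 7 annotated transcripts, and the tables give 1 value for the gene, so the long form that signals through STAT3 cannot be told apart from the short forms. Ghsr minus Lepr was 1.01 ± 0.48 log2 units (SD, n = 4; exact sign-flip permutation p = 0.13, the smallest possible), with Ghsr higher in 4 of 4 libraries. Replicates 2 and 4 were the higher ones for Ghsr, and replicate 4 was the lowest for Lepr.

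All 4 of these receptor genes were called lower than Npy1r in limma. Mc3r was 2.81-fold lower (log2 difference -1.49, SE 0.23, adjusted p = 0.000629) and Ghsr 2.76-fold lower (-1.46, SE 0.19, adjusted p = 0.000228). Mc4r was 3.98-fold lower (-1.99, SE 0.19, adjusted p = 4.63e-05) and Lepr 5.55-fold lower (-2.47, SE 0.17, adjusted p = 8.11e-06). Each lay below Npy1r in 4 of 4 libraries and still passed with any single replicate left out. Of all genes tested, 39.1% were called lower than Npy1r and 48.2% higher, and on values multiplied by transcript length 4490 of 15382 were lower and 8969 higher. These folds depend on the value added before the logarithm, and that of Lepr was -1.58 log2 units with 1 in place of 0.1.

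**Figure D3:**
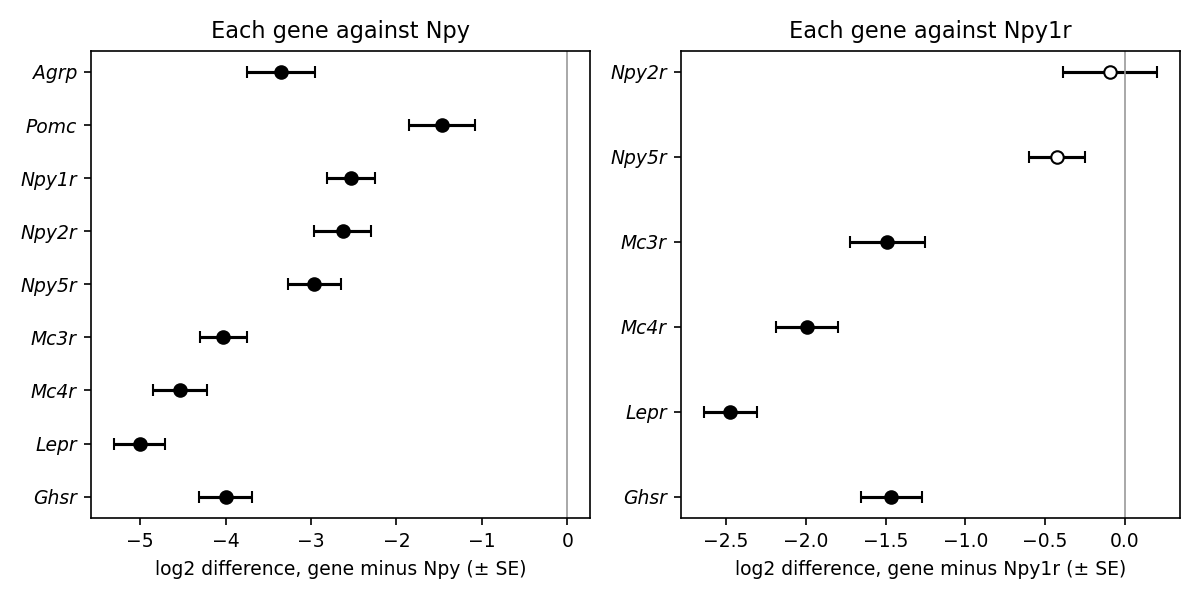
Log2 difference in level of each gene from Npy (left) and from Npy1r (right), with bars of 1 SE from limma over 4 libraries; filled points passed an adjusted p of 0.05 and open points did not. Every gene lies left of Npy, and Npy2r and Npy5r are the open points beside Npy1r at -0.09 and -0.43.

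In order of mean level the genes ran Npy, Pomc, Npy2r, Npy1r, Agrp, Npy5r, Mc3r, Ghsr, Mc4r and Lepr. Neighbours in that order differed by more than the SD of their within-library difference for Npy over Pomc (1.46 ± 0.86 log2 units), Pomc over Npy2r (1.17 ± 0.89), Npy5r over Mc3r (1.06 ± 0.70), Ghsr over Mc4r (0.53 ± 0.29) and Mc4r over Lepr (0.48 ± 0.41). The other 4 neighbouring pairs did not. Mc4r and Lepr were at ranks 9 and 10 in every library, while Agrp took rank 3 in replicate 2 and rank 8 in replicate 3. The 7 receptor genes together summed to 14.4, 19.9, 10.6 and 14.8 FPKM in replicates 1 to 4.

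The spread between libraries set the precursors apart from most receptors. The SD of log2 levels was 1.48 for Agrp, 1.42 for Pomc and 0.59 for Npy, against a median of 0.18, 0.12 and 0.10 among genes within 5 percentiles of the same mean level. For Npy2r and Mc3r it was 0.84 and 0.75, against 0.16 and 0.24. Npy1r, at 0.28, stood above the 0.16 of like genes. Npy5r at 0.21 and Ghsr at 0.34 lay near theirs of 0.19 and 0.25, and Mc4r at 0.25 and Lepr at 0.29 lay below theirs of 0.30 and 0.35. Of the 10 genes, 8 were highest in replicate 2, where 29.1% of all entries tested were highest, and 6 were lowest in replicate 3, where 35.9% were lowest.

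Marker genes of other tissues moved with these values. Of 17 genes of the arcuate nucleus and medial hypothalamus, all of them past the filter, 13 were highest in replicate 2. Their median deviation was 0.85 log2 units there and -0.66 in replicate 3, against 0.03 and -0.04 for all entries. Their levels summed to 499, 691, 245 and 418 FPKM in replicates 1 to 4. Most of each sum was Nnat alone, at 388, 415, 184 and 306 FPKM, and Avp lay at 2.17, 90.5, 4.10 and 18.3 FPKM. Next in abundance came Tac2, at 31.4, 23.95, 11.9 and 19.8 FPKM. It was 1 of 3 genes of the list that were highest in replicate 1. Among the 17 genes Nr5a1, a transcription factor of the ventromedial hypothalamus, lay at 0.292, 1.22, 0.0229 and 0.0687 FPKM, and Oxt, the oxytocin precursor, at 1.24, 44.0, 1.11 and 3.28 FPKM. Kiss1, a marker of other arcuate neurons, was at most 0.215 FPKM. Of 10 dopamine neuron markers 9 were highest in replicate 2, with sums of 564, 1020, 558 and 535 FPKM. Of the 10 genes described here 8 were highest there, against 29.1% of all entries tested. The part of such cells in the levels of the 10 genes was not tested.

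Of 11 pituitary genes 7 passed the filter and 5 of those were highest in replicate 2. Cga, the shared hormone subunit, lay at 2.34, 12.1, 0.772 and 0.0676 FPKM, and Tbx19, a factor of POMC-producing pituitary cells, at 0.304, 0.709, 0.0193 and 0.152 FPKM. The hormone genes Gh and Prl were listed at 0 in replicates 1, 3 and 4 and lay at 0.213 and 0.0511 FPKM in replicate 2, and Pou1f1 was at most 0.0277 FPKM. Their part in the Pomc values was not tested.

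Among other lists, genes of thalamic relay neurons were at 1.90 log2 units in replicate 3, where Npy, Agrp, Pomc, Npy2r, Mc3r and Mc4r were lowest, and at -1.24 in replicate 2. The thalamic gene Prkcd lay at 5.77, 3.72, 172 and 13.4 FPKM. Tanycyte and ependymal genes were at 0.90 in replicate 2 and -1.06 in replicate 3, but only 3 of the 7 genes were highest in replicate 2. The tanycyte factor Rax lay at 0.885, 1.43, 0.247 and 0.778 FPKM, while Dio2, a thyroid hormone deiodinase of tanycytes, was highest in replicate 3, at 3.02, 3.43, 4.02 and 3.22 FPKM. Genes of NPY interneurons of cortex and striatum were at 0.05 in replicate 2 and -0.56 in replicate 3. Of these, Sst lay at 86.0, 155, 75.6 and 154 FPKM and Chodl at 5.06, 4.01, 1.14 and 3.35 FPKM. Parasubthalamic genes were at -0.20 in replicate 2 and -0.33 in replicate 3, and lateral hypothalamic genes at -0.05 and -0.59. Single lateral hypothalamic genes moved more than that median, with Hcrt at 119, 7.7, 2.6 and 91.4 FPKM in replicates 1 to 4. Of the 8 genes of that list, 1 was highest in replicate 2. Choroid plexus genes, another site of Lepr, were at 0.41 in replicate 4, where Lepr was lowest, with 3 of 6 genes highest there. Ttr was at 49.7 FPKM in that library, but Kcnj13, a potassium channel gene, was highest in replicate 1 at 1.27 FPKM, against 1.11 FPKM in replicate 4. Vascular and meningeal genes were at 0.29 in replicate 1 and -0.30 in replicate 4. Excitatory cortical and hippocampal genes were at 1.10 in replicate 4, with 3 of 6 genes highest there. Slc17a7, the most abundant gene of that list, was highest in replicate 3, at 0.83, 3.4, 30.6 and 13.9 FPKM in replicates 1 to 4. Of the spinal and hindbrain list, 6 of 7 genes passed the filter through replicate 1 alone and were listed at 0 elsewhere.

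**Figure D4:**
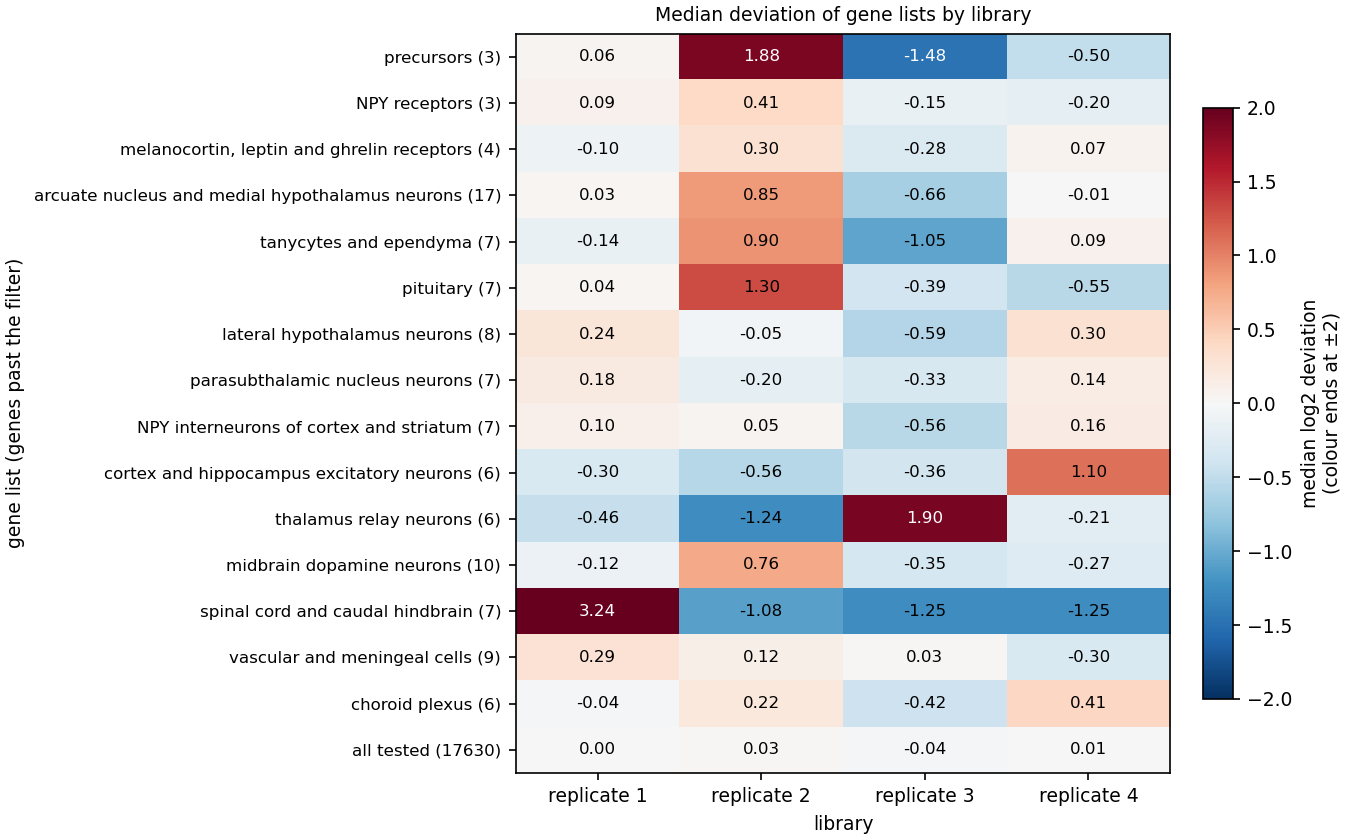
Median over each list of the genes' log2(FPKM + 0.1) in a library minus their own mean over 4 libraries; each row is a list, with the number of its genes past the filter, and each column a library. The precursors and the medial hypothalamic, pituitary, tanycyte and dopamine lists are positive in replicate 2, at 1.88, 0.85, 1.30, 0.90 and 0.76, and thalamic genes in replicate 3, at 1.90.

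Other ligands and receptors of these families were mostly near 0. Of 12 listed, 11 were in the tables and 3 passed the filter. Cartpt, the precursor of the appetite-restraining CART peptides, was 6.29-fold higher than Npy in limma (log2 difference 2.65, SE 0.36, adjusted p = 0.000386), in 4 of 4 libraries. Mboat4, the enzyme that acylates ghrelin, lay at 0.0751 to 0.208 FPKM and Ghrl, the ghrelin precursor, at 0 to 0.215 FPKM, both lower than Npy. Pyy and Ppy, the relatives of NPY, the leptin gene Lep, and the receptor genes Npy6r and Mc2r were listed at 0 in all 4 libraries. Npy4r was at most 0.148 FPKM, Mc5r at most 0.132 and Mc1r at most 0.0277.

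Of 10 genes that process or break down these peptides, all were tested, 4 were higher than Npy, 5 were lower and 1 did not pass, against the background of 10.2% and 70.4%, a background that turned round on values multiplied by transcript length. The median difference was -0.22 log2 units. Cpe, the carboxypeptidase that trims precursor fragments, was 56.5-fold higher than Npy at 1278 ± 84.5 FPKM (SD, n = 4), and Pam, which amidates peptides such as NPY and alpha-MSH, was 2.61-fold higher at 59.5 ± 9.10 FPKM. Of the convertases that cut POMC, Pcsk1 was 2.09-fold lower (adjusted p = 0.0154 in limma) at 11.0 ± 2.90 FPKM, and Pcsk2 lay at 34.9 ± 2.78 FPKM without passing (adjusted p = 0.119 in limma). Prcp, an enzyme that inactivates alpha-MSH, lay at 3.86 ± 0.480 FPKM and was 5.74-fold lower. These genes did not share the span of Agrp and Pomc: Pcsk1 spanned 1.95-fold and Pcsk2 1.21-fold.

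Receptor accessory and signalling genes stood above the receptors. Of 21 listed, 20 passed the filter, and of these 17 were higher than Npy1r in limma, 2 were lower and 1 did not pass, against 48.2% and 39.1% of all genes. The median difference was 1.88 log2 units. Mrap2, an accessory protein that modulates MC4R and the ghrelin receptor, lay at 15.95, 18.3, 11.6 and 15.0 FPKM in replicates 1 to 4, 3.88-fold above Npy1r. Stat3, the transcription factor activated by leptin, lay at 13.6 ± 1.89 FPKM (SD, n = 4), 3.48-fold above Npy1r, and the kinase gene Jak2 at 6.82 ± 0.638 FPKM, 1.77-fold above. Gnas, the stimulatory G protein subunit through which melanocortin receptors signal, lay at 967 ± 47.1 FPKM. The lower ones were Socs3, an inhibitor of leptin signalling that leptin itself induces, at 0.638 ± 0.132 FPKM and 5.34-fold below Npy1r, and Sim1, a transcription factor of the paraventricular nucleus, at 0.924 ± 0.432 FPKM and 4.05-fold below. The insulin receptor gene Insr did not pass (0.28, adjusted p = 0.252 in limma), at 6.35 FPKM in replicate 1 and 4.11 to 4.21 FPKM in the others.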

How the data were processed

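Total RNA was harvested with the TRIzol reagent and sequencing libraries came from a Hieff NGS Ultima Dual-mode mRNA kit, per the labels' protocols. The genome build named is GRCm38, per the submitters' processing notes. No aligner, counting program, annotation or strand setting is given in the sources used here. The values deposited by the authors carry no named unit and were taken as FPKM because of how they behave: they are not whole, and in genes with 1 transcript low values times length gathered near multiples of a step. The step was chosen in each library to fit these same low values. Between 41.3% and 52.8% of them lay within 0.1 of a whole step, where even spacing gives 20% for a step fixed beforehand. Counts could therefore not be recovered, and no counting intervals are given. On this step the values of the 10 genes correspond to about 19 (Agrp, replicate 3) to 1304 (Pomc, replicate 2) reads or read pairs, which of these being unknown.

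Symbols came from GENCODE M21, matching 22022 of 22036 Ensembl identifiers, and 3008 entries had no identifier. The third replicate's column is headed with a letter and was matched through the sample title. The filter was a mean of at least 0.1 FPKM, which left 17630 entries, and log2(FPKM + 0.1) was analysed. Every entry was compared with Npy or Npy1r inside each library by limma 3.58.1 (R 4.3.3; intercept only, two-sided, Benjamini-Hochberg over 17629 genes, threshold 0.05). The prior degrees of freedom were limited to 3.78, those of a trended fit of the genes' own levels, because all differences share the deviation of Npy or Npy1r. The fits were tested on simulated data. The labels give replicates by number only, so p-values measure the spread between these samples, which may be technical. Alternatives were other added values and filters, transcript length, limma's own prior, rescaling and leaving out each library. Tables and plots were made in Python 3.11.15 (matplotlib 3.10.9, pandas 2.3.3, numpy 2.4.6).

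The 10 genes and all lists were chosen with earlier results of these data known. Named genes are the 10, genes of 3 pathway lists, up to 3 of the most abundant and of the most deviating genes of each marker list, and the 3 genes nearest each precursor. Adcyap1, Crh, Kiss1, Gh, Prl, Pou1f1, Tbx19, Chodl, Rax, Dio2, Kcnj13 and Ctcf were named after their values were seen. Some genes of the marker lists are not reported here.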

Additional observations from a re-analysis of the deposited data

Results flagged for a closer look

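None of the 10 genes had a library set apart from the rest by Dixon's test for 4 values, though in replicate 2 the gap came near the critical value for Npy at 0.825 of the range, Npy1r at 0.811, Agrp at 0.807 and Pomc at 0.787. Of 134 genes of all lists that passed the filter, 24 had such a library. Chance alone gives about 5%, but the count is no test, since the lists were chosen with earlier results known and 6 Hox genes passed the filter through replicate 1 alone. In replicate 2 these were Ddc at 174 FPKM, Slc6a3 at 196, Th at 223, Pitx3 at 4.87, Oxt at 44.0, Sox14 at 3.34 and Pitx1 at 1.00. In replicate 1 they were Hoxa5 at 1.50, Hoxa7 at 3.80, Hoxb5 at 1.90, Hoxb8 at 4.81, Hoxc6 at 3.06, Hoxc8 at 1.30, Slc6a5 at 4.83 and Insr at 6.35 FPKM. Replicate 3 was high for Prkcd at 172, Tnnt1 at 48.8, Rgs16 at 35.8, Lef1 at 10.1, Atrnl1 at 13.1 and Ccdc153 at 4.30 FPKM, and low for Pam at 45.9. Replicate 4 was high for Ttr at 49.7 and Tbr1 at 0.910 FPKM.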

How the results depend on the processing

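Both precursors, 2 of 2, were called lower than Npy in limma, and the count was 1 on values multiplied by transcript length, and 1 to 2 when a single replicate was left out, Pomc being the one lost. The number of receptors called lower than Npy1r was 4 and lay between 4 and 5 when a replicate was left out. It was 3 with a filter at a mean of 1 FPKM, since Mc4r and Lepr fall below it. Npy5r passed as lower than Npy1r with 1 added (-0.34, adjusted p = 0.0416), with 0.01 added (-0.44, adjusted p = 0.0474), with that filter (-0.43, adjusted p = 0.0427), with limma's own prior (-0.43, adjusted p = 0.0456), on values multiplied by length (-0.81, adjusted p = 0.00493) and without replicate 2 (-0.33, adjusted p = 0.0497). Npy2r minus Npy1r changed sign on values multiplied by length, at 0.064, and ranged from -0.31 to 0.27 when a replicate was left out. Npy1r was not called lower than Npy on values multiplied by length (-0.16, adjusted p = 0.607). The cause of these changes was not tested. Agrp minus Pomc ranged from -1.92 to -1.87, Mc3r minus Mc4r from 0.19 to 0.62 and Ghsr minus Lepr from 0.79 to 1.17 when a replicate was left out. Rescaling to the total without mitochondrial transcripts or to the upper quartile moved the median gene by at most 0.02 log2 units and left each level within its SD. No paired analysis was possible because the libraries form 1 group, so replicate numbers pair no samples across groups; genes were compared within libraries. The value of Agrp in replicate 3 rests on the lowest estimated number of reads or read pairs among the 10 genes, and 4 libraries limit what the tests can call.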
